A study of Mus musculus with 6 samples.

Results

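Collagens are the main structural proteins of the skin's extracellular matrix, and 37 genes of collagen chains and of enzymes that modify them were examined in the epidermis of newborn mice, out of 54532 genes in the deposited count table. The genes were taken by symbol and fell into 8 fibrillar collagens, 8 basement membrane collagens, the anchoring fibril collagen Col7a1, 12 other collagens, 5 lysyl oxidases and 3 lysyl hydroxylases. RNA-seq covered 3 libraries with the label Paxbp1 knockout and 3 with the label wild type. The series gives as its aim the role of Paxbp1, a gene whose product binds Pax transcription factors, in keeping the epidermis in balance. Per the labels' protocols, fat and dermis were cut away, the tissue was kept overnight in Dispase II and the remaining dermis was peeled off before total RNA was extracted. The labels give the animals as newborn, and give no strain, Cre driver, deleted exons, sex or exact age, and no number of animals per library. P-values therefore measure the spread between these libraries, which may be technical.

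A collagen molecule is a triple helix of chains that are hydroxylated on lysine by the Plod enzymes inside the cell, secreted, and cross-linked outside it by lysyl oxidases. Fibrillar collagens form the fibres of the dermis and are mostly made by fibroblasts. Type IV collagen forms the sheet-like basement membrane under the epidermis, and type VII collagen, which keratinocytes and fibroblasts make, forms the anchoring fibrils that tie this membrane to the dermis.

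Libraries held 16315317 to 17816327 counts. Paxbp1 itself had 110, 70.9 and 77.8 CPM (counts scaled to library size, with TMM factors) in wild type libraries 1 to 3 and 134, 73.6 and 69.7 CPM in libraries 1 to 3 labelled knockout. These ranges overlapped (log2 fold change 0.10, SE 0.29, edgeR adjusted p = 0.783), and a count over the whole gene does not show the loss of a few exons, so it does not check the genotype labels. Markers of the labelled tissue were present, with Krt5, a basal keratin, at 9765 ± 599 CPM in the wild type libraries (mean ± SD, n = 3). In the libraries labelled knockout Krt5 fell to 1223 ± 518 CPM (edgeR adjusted p = 1.69e-04).

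Most fibrillar collagens (6 of 8), type VI collagen, lysyl oxidases and lysyl hydroxylases were higher in the libraries labelled knockout, while the fibrillar Col27a1, type VII collagen and the type IV chains Col4a5 and Col4a6 were lower. Of the 37 genes, 33 passed the filter on low counts and were tested. Of these, 21 were higher and 6 lower at an edgeR adjusted p under 0.05, against 28.7% of all 16471 genes tested that were higher and 25.1% that were lower (53.8% in either direction). The members' median log2 fold change, knockout minus wild type, was 2.21, and that of all genes tested was -0.03. All 3 libraries labelled knockout lay above all 3 wild type libraries for 21 members and below them for 6. The same was true of 31.9% and 30.4% of all genes tested. These 21 and the 21 that were called differ in 1 gene each way, since Col8a1 was called with overlapping groups and Col23a1 had separate groups without being called. Together the 37 genes held 0.137% to 0.22% of each wild type library and 0.689% to 1.41% of each library labelled knockout.

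**Figure D1:**
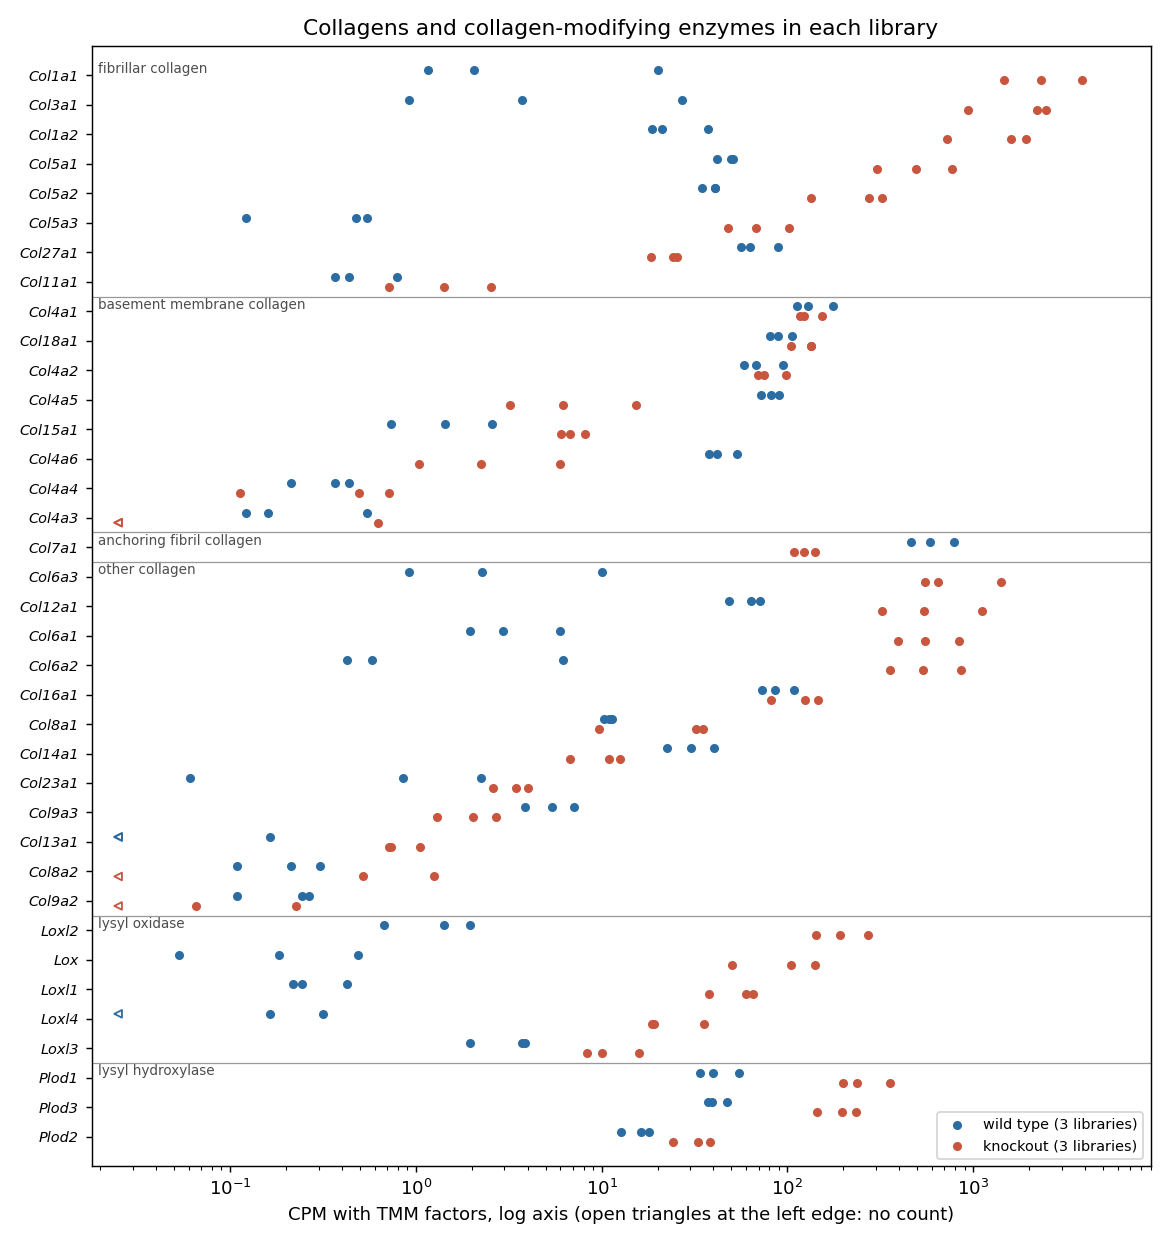
CPM of each gene in each library on a log axis, by class; blue points are the 3 wild type libraries, red points the 3 labelled knockout, and open triangles mark libraries with no count. For Col1a1 the libraries labelled knockout lie between 1456 and 3874 CPM and the wild type libraries between 1.16 and 20.2 CPM.

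Type I collagen, the main fibre protein of dermis, tendon and bone, is built from the chains of Col1a1 and Col1a2. Col1a1 (chr11:94936224-94953042, mm10) had 20.2, 1.16 and 2.07 CPM in wild type libraries 1 to 3 and 1456, 2315 and 3874 CPM in libraries 1 to 3 labelled knockout. The groups lay far apart, and within the wild type group library 1 stood above the other two. The log2 fold change was 8.34 ± 1.11 (edgeR adjusted p = 9.26e-05), and it was 10.60 without wild type library 1. Col1a2 had 37.3, 21.3 and 18.8 CPM in the wild type and 723, 1598 and 1932 CPM in the knockout. It rose by less than Col1a1, at 5.78 ± 0.49 on the log2 scale (edgeR adjusted p = 3.37e-06).

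Type III collagen accompanies type I in young and healing skin. Its gene Col3a1 had 27.1, 0.917 and 3.71 CPM in the wild type and 940, 2213 and 2460 CPM in the knockout, again with wild type library 1 high within its group. Its log2 fold change was 7.46 ± 1.12 (edgeR adjusted p = 2.1e-04), and 9.63 without wild type library 1. The type V chains, which regulate the start and width of fibrils, were present in all wild type libraries for Col5a1 and Col5a2. Col5a1 had 50.9, 42.0 and 49.5 CPM in the wild type and 304, 493 and 774 CPM in the knockout (log2 fold change 3.46 ± 0.35, edgeR adjusted p = 1.37e-05). Col5a2 had 40.8, 40.6 and 34.9 CPM against 135, 276 and 323 CPM (2.66 ± 0.32, edgeR adjusted p = 4.24e-05). Both genes rose with groups well apart and little spread in the wild type. Col5a3, another type V chain, was close to absent in the wild type at 0.546, 0.122 and 0.478 CPM and reached 48.2, 67.6 and 101 CPM in libraries 1 to 3 labelled knockout (7.51 ± 0.47, edgeR adjusted p = 4.32e-07).

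Beside all-gene shares of 28.7% higher and 25.1% lower, 6 of the 8 fibrillar collagens were higher, 1 was lower and 1 was not called. All 8 were tested, with a median log2 fold change of 4.62. The lower one was Col27a1, a fibrillar collagen best known from cartilage, at 89.5, 56.3 and 62.8 CPM in the wild type and 24.2, 25.4 and 18.5 CPM in the knockout. It fell by 1.62 on the log2 scale (SE 0.24, edgeR adjusted p = 2.22e-04). Col11a1, a minor fibrillar chain, was scarce in every library at 0.437, 0.367 and 0.796 CPM and 2.55, 0.719 and 1.43 CPM. These groups overlapped, and the adjusted p of 0.0524 (edgeR) lay just past the threshold. It was called with RLE factors (edgeR adjusted p = 0.0487), with DESeq2 (0.0482) and without the knockout library 2 (edgeR, 0.0271).

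Promoter sequences from RefSeq (build GRCm38.p6, the 250 bases before a RefSeq start) matched 26 of the 37 genes, of which 13 were called higher and 4 lower. For genes with more than 1 listed start the first was taken. The windows of Col27a1 and Col1a2 lie past the gene start in the count table. Those of Col1a2, Col4a5, Col6a1, Col6a2, Loxl4 and Plod3 overlap annotated exons, as do some of genes not called. All of these windows enter the motif counts below. The promoters of Col3a1 and Col5a3 are shown because these genes rose by similar factors with all libraries (176.6 and 182.5) and their promoters held different motifs. Their wild type means were 10.56 and 0.3818 CPM, and without wild type library 1 Col3a1 rose 793.8-fold. Capitals mark matches on either strand to the TATA box letters TATAAA, the CCAAT box CCAAT, the GC box GGGCGG or the AP-1 motif TGANTCA, and each line runs 5′ to 3′ on the gene's strand. Col3a1 spans chr1:45311288-45311537 on the plus strand and Col5a3 chr9:20815068-20815317 on the minus strand.
Col3a1: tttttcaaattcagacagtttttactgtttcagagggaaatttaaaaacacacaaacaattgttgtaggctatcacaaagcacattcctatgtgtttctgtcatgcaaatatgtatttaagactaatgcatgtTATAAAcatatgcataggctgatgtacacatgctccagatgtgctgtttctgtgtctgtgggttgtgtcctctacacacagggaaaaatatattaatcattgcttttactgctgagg
Col5a3: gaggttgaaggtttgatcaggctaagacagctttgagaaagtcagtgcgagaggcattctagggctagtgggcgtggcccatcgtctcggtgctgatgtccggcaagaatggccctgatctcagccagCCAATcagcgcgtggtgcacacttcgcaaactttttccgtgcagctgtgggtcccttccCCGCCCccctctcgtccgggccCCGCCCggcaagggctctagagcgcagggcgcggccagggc
Col3a1 had 1 TATAAA starting 117 bases before the annotated start and no other match. Col5a3 had a CCAAT 122 bases before the start and 2 GGGCGG matches on the other strand, 63 and 41 bases before it. Over the higher genes, TATAAA was found in 3 of 13 promoters, CCAAT in 3, GGGCGG in 7 and TGANTCA in 1. Over the 4 lower genes these numbers were 0, 2, 4 and 0, and the GGGCGG match of Col4a5 lies within the 34 bases of its window that are in an annotated exon and are not printed. Among all 32851 promoters of the table the shares were 12.4% for TATAAA, 33.8% for CCAAT, 32.7% for GGGCGG and 6.75% for TGANTCA. A match describes letters and is not evidence of binding.

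Type IV chains split by pair. Col4a1 and Col4a2 encode the chains of the type IV network found in nearly all basement membranes, and Col4a5 and Col4a6 encode chains of a second network found in fewer tissues, the epidermis among them. Col4a1 had 175, 112 and 128 CPM in the wild type and 117, 122 and 155 CPM in the knockout, so the groups overlapped (log2 fold change -0.08 ± 0.23, edgeR adjusted p = 0.798). Its fold had a 95% interval from 0.661 to 1.36. Col4a2 had 94.9, 58.4 and 68.1 CPM against 74.9, 69.5 and 98.2 CPM (0.13 ± 0.24, edgeR adjusted p = 0.672), with an interval of the fold from 0.757 to 1.59. The sign of both small differences turned under some alternatives, and neither gene was called under any.

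Col4a5 fell. It had 89.9, 81.8 and 72.0 CPM in the wild type and 15.2, 3.20 and 6.19 CPM in the knockout (log2 fold change -3.30 ± 0.46, edgeR adjusted p = 1.33e-04). Col4a6 had 53.7, 38.0 and 41.9 CPM against 6.002, 1.05 and 2.23 CPM (-3.83 ± 0.50, edgeR adjusted p = 7.93e-05). In both genes library 1 labelled knockout kept the highest level of its group, and without it the log2 fold changes were -4.10 and -4.74. Their neighbours in the genome are each other. Col4a6 (chrX:141165403-141474076, minus strand) and Col4a5 (chrX:141475385-141689234, plus strand) lie head to head with 1308 bases between their starts. Col4a1 and Col4a2 also lie head to head, on chromosome 8, and their annotated ends share 22 bases.

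The promoters of the X-linked pair are shown because the 2 genes fell together and are read away from the same stretch. Col4a5 is chrX:141475169-141475384 on the plus strand, given for the 216 bases that lie outside annotated exons, and Col4a6 is chrX:141474077-141474326 on the minus strand, with capitals as before.
Col4a5: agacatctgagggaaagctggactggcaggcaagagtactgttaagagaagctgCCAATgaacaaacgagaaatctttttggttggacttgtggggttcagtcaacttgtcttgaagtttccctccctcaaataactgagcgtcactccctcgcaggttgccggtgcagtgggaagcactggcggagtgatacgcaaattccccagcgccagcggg
Col4a6: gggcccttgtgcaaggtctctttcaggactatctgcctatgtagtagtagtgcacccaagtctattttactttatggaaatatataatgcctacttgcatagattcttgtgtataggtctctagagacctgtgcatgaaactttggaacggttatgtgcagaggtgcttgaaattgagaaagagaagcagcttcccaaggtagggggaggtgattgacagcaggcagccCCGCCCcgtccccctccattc
Col4a5 carried a CCAAT that begins 162 bases before the gene start given above, and Col4a6 a GGGCGG on the other strand 21 bases before its start.

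**Figure D2:**
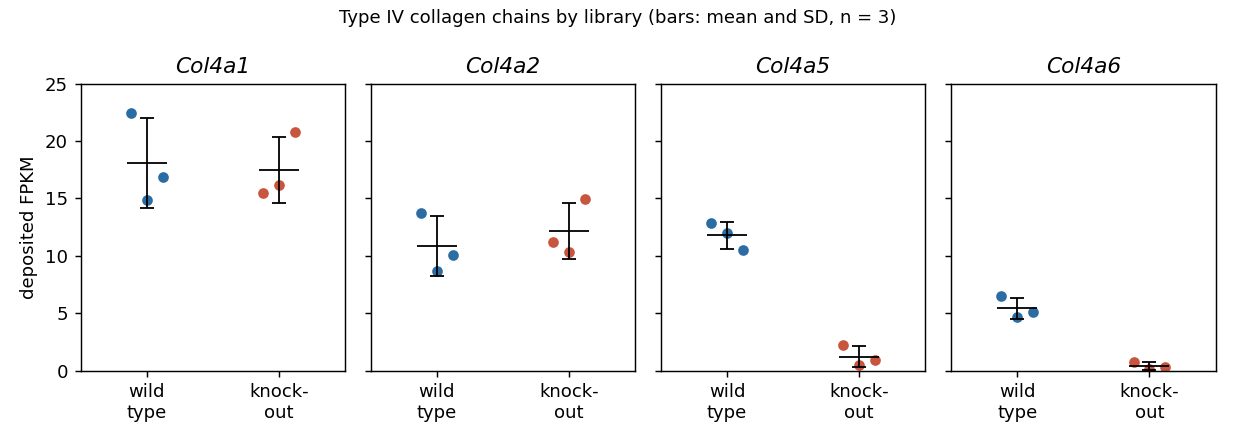
Deposited FPKM (fragments relative to gene length and library total) of the 4 abundant type IV chains in each library; points are libraries and bars the mean and SD (n = 3). Col4a1 and Col4a2 overlap between groups, while Col4a5 goes from a mean of 11.8 to 1.21 FPKM and Col4a6 from 5.44 to 0.385 FPKM.

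Within a library, FPKM ratios of chains describe the same split. The Col4a1 to Col4a5 ratio was 1.24 to 1.75 in wild type libraries, against 6.89 to 34.4 in those labelled knockout. The Col4a5 to Col4a6 ratio moved less, from between 1.99 and 2.55 to between 3.01 and 3.63. The Col4a1 to Col4a2 ratio was 1.63 to 1.71 and then 1.38 to 1.56. Col1a1 to Col1a2 was 1.03, 0.103 and 0.209 in wild type libraries 1 to 3 and 3.81, 2.74 and 3.80 in those labelled knockout. Col5a1 to Col5a2 was 1.17 to 1.60 and then 2.02 to 2.70. For each of these 5 ratios the groups were separate, which gives the smallest two-sided exact permutation p that 3 against 3 allows (0.1, or 0.16 adjusted over 8 ratios). The ratios of Col1a1 to Col3a1 and of Col6a1 to Col6a2 and Col6a3 overlapped between groups.

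The other basement membrane collagens were Col15a1 and Col18a1, which carry heparan or chondroitin sulphate chains and release fragments that inhibit vessel growth. Col15a1, found mostly around vessels and muscle, had 2.57, 0.734 and 1.43 CPM in the wild type and 8.10, 6.08 and 6.75 CPM in the knockout and rose by 2.13 ± 0.44 on the log2 scale (edgeR adjusted p = 0.00188). Col18a1 had 106, 80.2 and 89.0 CPM against 134, 104 and 135 CPM, with a small overlap (0.44 ± 0.21, edgeR adjusted p = 0.105). With the replicate number as a block the same difference of 0.44 was called for Col18a1 (edgeR adjusted p = 0.036), and the higher basement membrane collagens then numbered 2 in place of 1. Col4a3 and Col4a4, chains of the kidney and lung network, were not tested, having 15 and 18 wild type counts and 11 and 21 knockout counts. Of 6 basement membrane collagens tested, 1 was thus higher, 2 were lower and 3 were not called, with a median of 0.03.

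Type VII collagen was the most abundant of the 29 collagens in the wild type epidermis per gene length, at 58.0 ± 14.4 FPKM (SD, n = 3). Col7a1 (chr9:108953586-108984875) had 784, 588 and 465 CPM in the wild type and 140, 108 and 123 CPM in the knockout. The groups did not overlap, and the level was 4.95-fold lower (log2 fold change -2.31 ± 0.28, edgeR adjusted p = 4.75e-05). Col17a1, a transmembrane collagen of hemidesmosomes that is not among the 29, stood higher per gene length, at 179 ± 25.8 FPKM in the wild type and 24.8 ± 17.1 FPKM in the knockout. The Col7a1 promoter is shown as that of the gene that led among the 29 collagens in the wild type, chr9:108953336-108953585 on the plus strand with capitals as before.
Col7a1: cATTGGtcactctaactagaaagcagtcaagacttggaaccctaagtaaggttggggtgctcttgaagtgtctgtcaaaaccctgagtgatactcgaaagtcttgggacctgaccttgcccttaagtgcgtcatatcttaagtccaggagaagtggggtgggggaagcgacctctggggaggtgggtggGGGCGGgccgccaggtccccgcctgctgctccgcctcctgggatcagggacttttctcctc
It held a CCAAT on the other strand 249 bases before the start and a GGGCGG 61 bases before it.

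Type VI collagen forms beaded filaments around cells in connective tissue, and its 3 chains rose together. Col6a1 had 5.95, 2.93 and 1.96 CPM in the wild type and 396, 548 and 840 CPM in the knockout (log2 fold change 7.36 ± 0.52, edgeR adjusted p = 9.43e-07). Col6a2 had 6.22, 0.428 and 0.584 CPM against 355, 537 and 855 CPM (7.90 ± 0.94, edgeR adjusted p = 4.11e-05). Col6a3 had 10.1, 0.917 and 2.28 CPM against 548, 647 and 1415 CPM (7.61 ± 0.87, edgeR adjusted p = 2.92e-05). All 3 were separate between groups, and wild type library 1 was the highest of its group in each. Without that library the changes of Col6a2 and Col6a3 were 10.13 and 9.06. Col6a2 and Col6a1 are neighbours on chromosome 10, both on the minus strand and 85161 bases apart, with Col18a1 a further 326009 bases on.

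The fibril-associated collagens, which sit on the surface of fibres, went in both directions. Col12a1 had 71.4, 48.6 and 63.9 CPM in the wild type and 323, 542 and 1115 CPM in the knockout (log2 fold change 3.43 ± 0.44, edgeR adjusted p = 7e-05), and 2.82 without the knockout library 3. Its relative Col14a1 fell, from 40.5, 22.4 and 30.3 CPM to 6.74, 10.98 and 12.5 CPM (-1.63 ± 0.30, edgeR adjusted p = 9.29e-04). Neither pair of groups overlapped. Col9a3, a chain of the cartilage collagen type IX, had 7.09, 5.44 and 3.87 CPM against 2.72, 1.31 and 2.04 CPM and fell by 1.43 on the log2 scale (SE 0.40, edgeR adjusted p = 0.0114). It was not called without wild type library 1 (edgeR adjusted p = 0.0604), and its exons overlap those of Tcfl5 on the other strand. Col16a1 had 109, 86.3 and 73.3 CPM against 81.2, 147 and 124 CPM with overlap (0.39 ± 0.26, edgeR adjusted p = 0.226). It was called without the knockout library 1 (0.61, edgeR adjusted p = 0.0367) and without both libraries numbered 1 (0.75, edgeR adjusted p = 0.0252). Col9a2 was not tested, with 11 wild type and 5 knockout counts.

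The last group holds the short-chain collagens of type VIII and the transmembrane collagens Col13a1 and Col23a1. Col8a1, a vessel wall and eye collagen, had 11.02, 11.3 and 10.3 CPM in the wild type and 9.68, 32.2 and 35.3 CPM in the knockout. Library 1 labelled knockout lay below all 3 wild type libraries, and the other two lay well above them. The gene was called at 1.24 ± 0.40 (edgeR adjusted p = 0.0222). That call was lost without the knockout library 2 (edgeR adjusted p = 0.072) or 3 (0.0886), and without wild type library 1 (0.0507), 2 (0.0501) or 3 (0.0652). It was also lost with limma-voom (adjusted p = 0.0725). Col8a2 was not tested (11 and 30 counts). Col13a1 had 3 counts, all in wild type library 1, against 41 in the knockout, a ratio of 14.9 (exact 95% counting interval 4.753 to 75.2, counting error only), and was called (edgeR adjusted p = 0.00589). Col23a1 had 2.24, 0.0611 and 0.849 CPM against 2.61, 3.46 and 4.03 CPM and was not called (1.66 ± 0.74, edgeR adjusted p = 0.0812). It was called without wild type library 1 (2.83, edgeR adjusted p = 0.0126), without both libraries numbered 1 (0.0138) and without the filter (0.00651). It was also called with DESeq2 (adjusted p = 0.0368), with limma-voom (0.0233) and on log2(FPKM + 1) with limma-trend (0.0375). Of the 10 other collagens tested 6 were higher and 2 lower, with a median of 2.54, and 1 was lower without wild type library 1.

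Lysyl oxidases oxidise lysines so that collagen and elastin can be cross-linked, and all 5 genes rose, with a median of 7.21. Lox had 0.491, 0.183 and 0.0531 CPM in the wild type and 50.6, 104 and 141 CPM in the knockout (log2 fold change 8.62 ± 0.60, edgeR adjusted p = 8.34e-07), and 9.65 without wild type library 1. Loxl1, which acts on elastic fibres, had 0.218, 0.245 and 0.425 CPM against 37.8, 59.9 and 65.7 CPM (7.48 ± 0.38, edgeR adjusted p = 1.96e-07). Loxl2, which cross-links type IV collagen, had 1.42, 0.673 and 1.96 CPM against 143, 193 and 273 CPM (7.21 ± 0.43, edgeR adjusted p = 3.49e-07). These 3 genes were nearly silent in the wild type and well expressed in every library labelled knockout. Loxl4 had 0.164, 0 and 0.318 CPM against 19.1, 18.7 and 35.6 CPM (7.13 ± 0.58, edgeR adjusted p = 2.43e-06), where the count of 0 in wild type library 2 allows up to 0.183 CPM. Without wild type library 3 its change was 8.04. Loxl3 moved least, from 3.71, 1.96 and 3.87 CPM to 10.1, 8.30 and 15.9 CPM (1.84 ± 0.37, edgeR adjusted p = 0.00148). Its exons overlap those of Htra2 on the other strand.

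Lysyl hydroxylases were expressed in the wild type epidermis already, and all 3 rose, with a median of 2.21. Plod1 had 55.0, 33.7 and 39.8 CPM in the wild type and 199, 237 and 357 CPM in the knockout (log2 fold change 2.62 ± 0.29, edgeR adjusted p = 2.66e-05). Plod3, which also takes part in adding sugars to hydroxylysine, had 47.2, 39.1 and 37.6 CPM against 144, 197 and 235 CPM (2.21 ± 0.24, edgeR adjusted p = 2.27e-05). Plod2, which hydroxylates the telopeptides at the chain ends, had 17.95, 12.7 and 16.2 CPM against 38.4, 33.1 and 24.2 CPM (1.03 ± 0.25, edgeR adjusted p = 0.00464). None of the 3 overlapped between groups. Per gene length Plod3 and Plod1 reached 42.2 ± 10.4 and 38.9 ± 12.5 FPKM in the knockout, and Loxl2, the highest lysyl oxidase, 37.4 ± 12.4 FPKM (SD, n = 3 each). These 3 levels lay within their spread of each other.

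**Figure D3:**
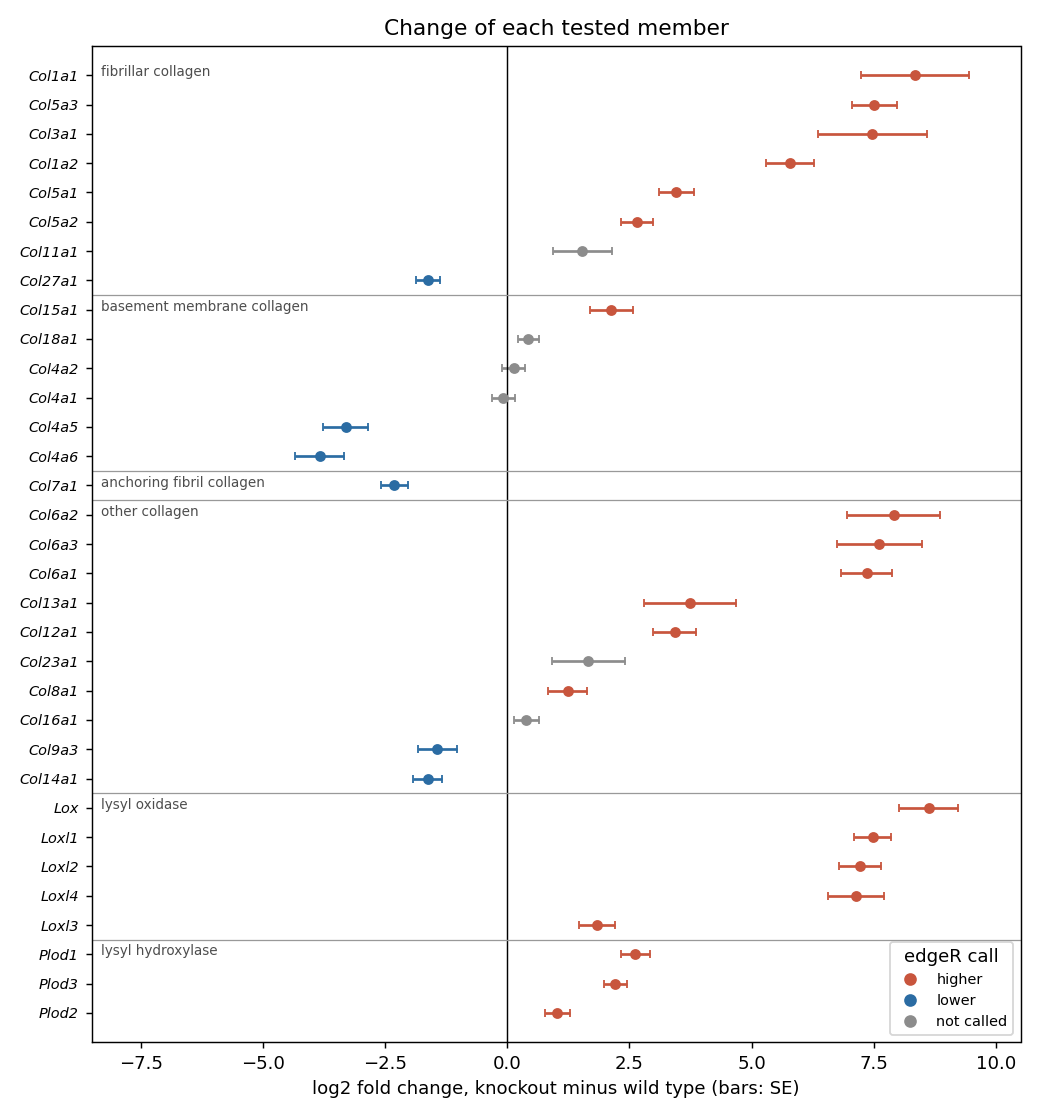
Log2 fold change, knockout minus wild type, of the 33 tested genes by class, with SE bars from edgeR; red is called higher, blue called lower and grey not called. Values run from -3.83 for Col4a6 to 8.62 for Lox, and the 5 lysyl oxidases and 3 lysyl hydroxylases are all on the right.

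The shares of the 29 collagens in their summed FPKM differed between the groups. The FPKM of the 29 collagens summed to 200.4, 146.3 and 138.2 in wild type libraries 1 to 3 and to 707.1, 1154 and 1726 in libraries 1 to 3 labelled knockout. In the wild type Col7a1 made up 35.7 ± 3.31% of that sum, basement membrane collagens 36.9 ± 2.74%, fibrillar collagens 11.6 ± 1.01% and other collagens 15.8 ± 0.294% (SD, n = 3). In the knockout these shares were 1.17 ± 0.649%, 4.69 ± 2.05%, 65.3 ± 4.15% and 28.8 ± 2.10%. Shares fall when the total rises, and are not levels. Basement membrane collagens summed to 372 to 522.6 CPM in wild type libraries and 306.8 to 403 CPM in those labelled knockout. Fibrillar collagens summed to 162.7 to 266.7 CPM and 3632 to 9484 CPM. With Col17a1 added to the summed FPKM, a check chosen after seeing the data, Col17a1 itself made up 52.7 ± 3.90% in the wild type and 2.69 ± 2.82% in the knockout. The shares of Col7a1, basement membrane, fibrillar and other collagens then were 17 ± 2.83%, 17.3 ± 0.206%, 5.47 ± 0.646% and 7.48 ± 0.541% in the wild type and 1.12 ± 0.589%, 4.53 ± 1.83%, 63.7 ± 5.70% and 28 ± 1.79% in the knockout. The order of single collagens changed too. In the wild type Col7a1 was followed by Col4a1 (18.1 ± 3.94 FPKM), and then Col16a1 (12.9 ± 2.43 FPKM), Col18a1 (12.7 ± 1.60 FPKM), Col4a5 (11.8 ± 1.18 FPKM) and Col4a2 (10.9 ± 2.61 FPKM), which lay within their spread of each other. In the knockout Col1a1 led (387 ± 190 FPKM), followed by Col3a1 (190 ± 83.5 FPKM), Col6a1 (135 ± 52.5 FPKM) and Col1a2 (114 ± 50.7 FPKM), with spreads that overlapped between neighbours. Col7a1 stood there at 11.96 ± 1.56 FPKM, near Col4a2 (12.2 ± 2.42 FPKM).

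**Figure D4:**
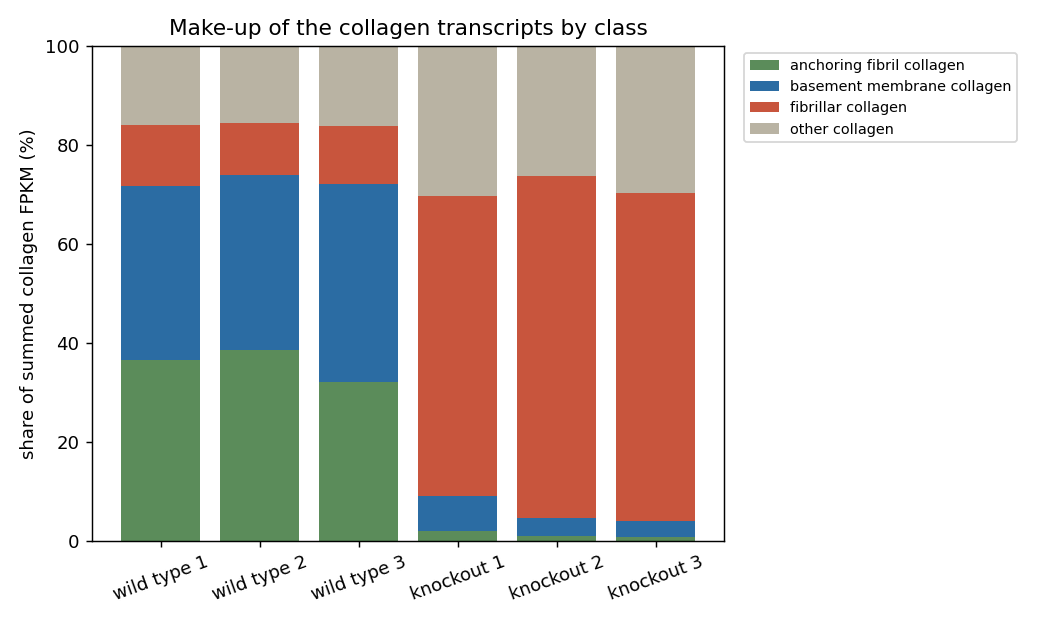
Share of each collagen class in the summed FPKM of the 29 collagens, as stacked bars from 0 to 100%, 1 bar per library, without Col17a1. Anchoring fibril and basement membrane collagens fill most of the 3 wild type bars, with means of 35.7% and 36.9%, and fibrillar collagens most of the 3 knockout bars, with a mean of 65.3%. The bars show shares of a sum that differs between libraries, not levels.

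Libraries of a group also differed among themselves. Of the 21 higher genes, wild type library 1 was the highest of its group for 16, and among the libraries labelled knockout library 3 was the highest for 19 and library 1 the lowest for 16. For all 6 lower genes wild type library 1 was the highest of its group, and for 4 of them library 1 labelled knockout was. Such extremes were not counted over all genes tested, so these numbers do not show a trait particular to the members. Wild type library 1 exceeded the mean of wild type libraries 2 and 3 by 12.5 times for Col1a1, 11.7 times for Col3a1, 12.3 times for Col6a2 and 6.31 times for Col6a3. Of the 9 fibroblast markers with at least 10 wild type counts and a ratio that could be computed, 3 were over 2, namely Prrx1 (37.02), Pdgfra (14.4) and Twist1 (10.3). The median of the 9 was 1.22, and the other 6 lay between 0.733 for Dcn and 1.84 for Lum. Dpt, a further fibroblast marker, was counted in wild type library 1 alone among the wild type libraries. Ratios were 1.11 for Col5a1, 1.08 for Col5a2, 0.795 to 1.32 for macrophage markers and 0.813 to 1.43 for basal keratinocyte markers. The part of these cells in the library's high collagen values was not tested. Without that library each of the 4 collagen changes was larger, as given above.

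**Figure D5:**
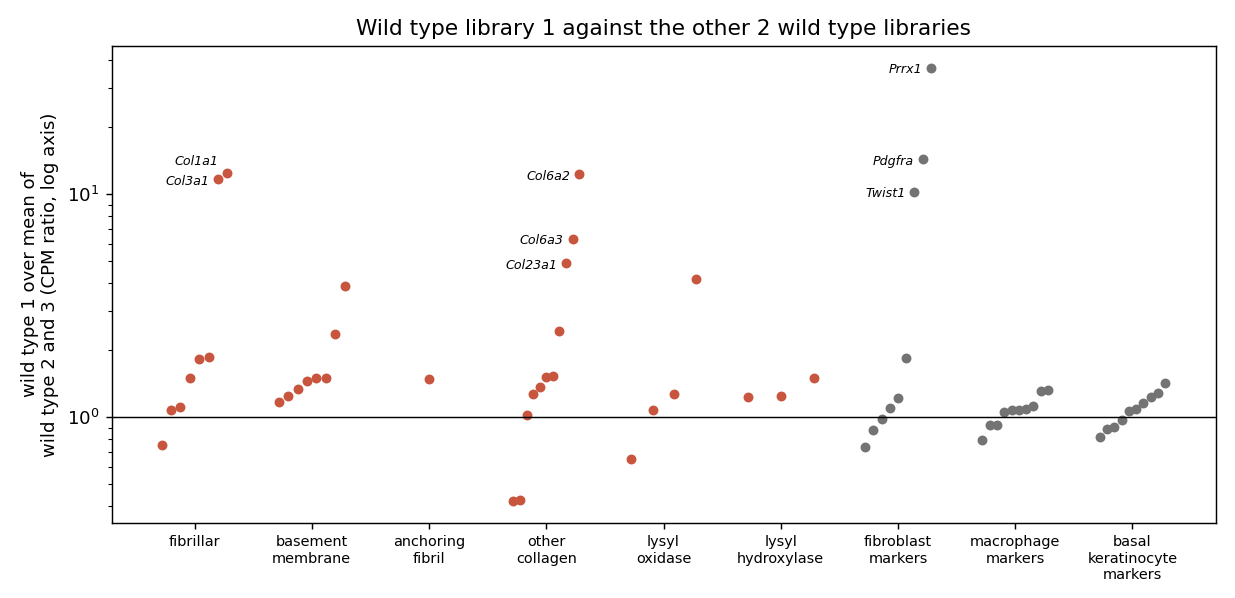
CPM in wild type library 1 divided by the mean of wild type libraries 2 and 3, on a log axis, for genes with at least 10 wild type counts; red points are collagens and enzymes by class, grey points cell type markers, and the line marks a ratio of 1. Col1a1, Col3a1, Col6a2 and Col6a3 stand at 6.31 to 12.5, beside the fibroblast markers Twist1, Pdgfra and Prrx1 at 10.3 to 37.02, while the other 6 fibroblast markers lie between 0.733 (Dcn) and 1.84 (Lum) and macrophage markers stay between 0.795 and 1.32.

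Markers of several cell types moved with the collagens between the groups. Their counts stand beside all-gene shares of 28.7% higher and 25.1% lower, as do those of the lists that follow. In bulk samples, fewer cells of a type and less RNA per cell cannot be told apart. Of 14 fibroblast markers 13 were tested, of which 11 were higher and 2 lower, and their summed level was 449.4 to 498.7 CPM in wild type libraries, against 731.9 to 1518 CPM in the others. The wild type sum came mostly from Dcn (209 ± 35.6 CPM) and Fbln1 (200.2 ± 3.03 CPM), while Mfap5 had no wild type count. Dcn, the small proteoglycan decorin, rose to 500.3 ± 207 CPM (edgeR adjusted p = 0.00902), and Fbln1, a fibulin of the matrix, fell to 46.9 ± 11.3 CPM (edgeR adjusted p = 2.66e-05). Of 12 endothelial markers 8 of 9 tested were higher, at 8.754 to 10.42 against 220.8 to 391.9 CPM. Pecam1 led with 1.20 ± 0.403 against 250.5 ± 84.1 CPM, and Eng had 3.04 ± 0.819 against 19.9 ± 1.60 CPM. Pecam1 alone had 165.6, 252.1 and 333.7 CPM in libraries 1 to 3 labelled knockout, most of each sum. Cdh5 and Kdr, which were also higher, had 7.153 ± 2.905 and 7.983 ± 0.5714 CPM in the knockout. The endothelial sum thus rests mainly on 1 gene. With the replicate block 1 endothelial marker was also lower. Of 10 pericyte and smooth muscle markers 7 were tested, with 5 higher and 1 lower, at 128.4 to 198.5 against 175.1 to 216.7 CPM. Acta2, the smooth muscle actin, rose from 0.508 ± 0.0914 to 95.7 ± 36.9 CPM. Most of the wild type sum came from Notch3. It fell from 120 ± 30.7 to 42.5 ± 36.1 CPM (edgeR adjusted p = 0.0243), a call lost without the knockout library 2 (0.0557) or 3 (0.0873) or wild type library 1 (0.0859). Its log2 fold change was -1.49, and -2.44 without the knockout library 1. The part of these cell types in the collagen values was not tested.

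Genes listed as macrophage and neutrophil markers were higher and keratinocyte markers lower in the same libraries. All 11 macrophage markers rose, with wild type sums of 178.3 to 192.4 CPM and knockout sums of 10330 to 19210 CPM. Mrc1, the mannose receptor that takes up collagen fragments, went from 6.44 ± 1.19 to 6063 ± 1663 CPM, and Cd163 had 1 wild type count against 3129 ± 1176 CPM. All 6 neutrophil markers tested of 10 rose, from sums of 2.123 to 3.165 CPM to 3405 to 8398 CPM. S100a9 at 2637 ± 1265 and S100a8 at 2158 ± 1082 CPM held most of the knockout sum, which is therefore mainly a level of these genes. Ly6g and Retnlg had no wild type count and 57 and 2180 knockout counts. Mpo and Elane had 1 wild type count each and 31 and 19 knockout counts. All 10 basal keratinocyte markers fell, from 20560 to 22600 CPM to 2046 to 5178 CPM. Krt14 went from 5578 ± 642 to 2103 ± 1080 CPM (edgeR adjusted p = 0.0206, lost without wild type library 2, 0.0559, or 3, 0.0621). Of 10 suprabasal markers 9 fell, from 69270 to 125400 CPM to 3513 to 8495 CPM, with Krt1 at 30670 ± 8753 against 2721 ± 1256 CPM and Krt10 at 29010 ± 11850 against 2136 ± 1005 CPM. With the replicate block 1 suprabasal marker was higher. Per library labelled knockout, the macrophage sums were 10330, 15770 and 19210 CPM for libraries 1 to 3. In the same order the basal keratinocyte sums were 5178, 4875 and 2046 CPM. The fibroblast sums were 731.9, 1518 and 1430 CPM and the neutrophil sums 3405, 8398 and 6455 CPM. Endothelial sums were 220.8, 304.6 and 391.9 CPM, and those of pericytes and smooth muscle 190.1, 175.1 and 216.7 CPM. The summed CPM of the 37 collagen and enzyme genes in these libraries was 6494, 10720 and 15560. The part of any of these cell types in the collagen values was not tested.

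Smaller tissue lists gave fewer counts, to be read beside the all-gene shares of 28.7% higher and 25.1% lower. Of 8 Schwann cell markers 4 were higher and 2 lower, with Mbp, a myelin protein, higher (21.5 ± 1.80 against 51.2 ± 10.3 CPM) and Erbb3 lower (164 ± 39.8 against 68.7 ± 43.9 CPM, edgeR adjusted p = 0.0178). Most of the summed wild type level of this list, 192.6 to 268.7 CPM, came from Erbb3. Erbb3 was not called without the knockout library 2 (edgeR adjusted p = 0.0557) or 3 (0.0686) or wild type library 1 (0.0753), and its log2 fold change of -1.26 was -1.91 without the knockout library 1. Of 8 adipocyte markers Fabp4 alone passed the filter and rose from 17.9 ± 11.7 to 353 ± 157 CPM (4.30 on the log2 scale, and 4.90 without wild type library 3). Pck1 had 1 wild type count against 100 and was not tested. Adipoq and Plin1 had no wild type count and 36 and 54 knockout counts, and Cidec had 2 against 43. The adipocyte call with the filter therefore rests on Fabp4 alone, and without the filter 6 of 7 markers were called higher. The 4 skeletal muscle markers tested of 8 rose, with sums of 0.5305 to 1.637 against 8.833 to 24.96 CPM, and Acta1, the skeletal actin, reached 6.29 ± 3.93 CPM. Of 2 chondrocyte markers tested of 8, Hapln1 was higher (1 wild type count against 72) and Col11a2 was not called (6.10 ± 2.21 against 6.65 ± 3.32 CPM, edgeR adjusted p = 0.81). These markers' part in the collagen values was not tested either.

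Collagen genes outside the 37 numbered 15 in the table, and 8 were tested, with 5 higher and 1 lower. Over all genes tested these shares were 28.7% and 25.1%. Col17a1, the transmembrane collagen of the hemidesmosomes that fix basal keratinocytes to the basement membrane, was the lower one. It had 1213, 882 and 1087 CPM in the wild type and 259, 88.7 and 83.4 CPM in the knockout (log2 fold change -2.88 ± 0.45, edgeR adjusted p = 2.95e-04), and -3.61 without the knockout library 1. Col24a1, a fibrillar collagen, had no wild type count and 7.30, 6.40 and 11.2 CPM in the knockout, at least 147.9-fold higher when the empty group is given 3 counts in all. Col28a1, found in nerve, rose from 0.131 ± 0.083 to 6.51 ± 2.33 CPM (5.56 ± 0.57, edgeR adjusted p = 1.39e-05).

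Genes that fold, hydroxylate and export procollagen were mostly higher. Of 17 genes of hydroxylation and folding 16 were tested, of which 11 were higher and 2 lower, with a median of 1.34. Fkbp10 and Fkbp14, prolyl isomerases that act on procollagen, rose from 4.97 ± 0.729 to 45.6 ± 8.23 CPM and from 1.80 ± 0.194 to 15.5 ± 4.25 CPM. Both lower genes were of the prolyl hydroxylase family. P3h2 fell from 10.9 ± 4.23 to 3.38 ± 2.53 CPM (edgeR adjusted p = 0.0148, not called without the knockout library 3, 0.0539, or wild type library 1, 0.0682). P3h2 fell by 2.48 on the log2 scale without the knockout library 1, against 1.68 with all libraries. P3h4 had 55.9 ± 7.46 against 37.8 ± 6.43 CPM (edgeR adjusted p = 0.0438), and this call was lost without any 1 of 5 libraries, knockout 1 (0.0755) and 3 (0.127) and wild type 1 (0.063), 2 (0.168) and 3 (0.0992). For export and removal of the propeptides, 6 of 11 genes tested were higher and 2 lower, with a median of 0.79. All genes tested had shares of 28.7% higher and 25.1% lower. Adamts2, which cuts the N-propeptide, rose by 7.69 ± 0.44 (log2 scale), and Pcolce, which enhances C-propeptide cutting, by 3.99 ± 0.52, or 4.98 without wild type library 1. Tll1, a C-proteinase, fell by 4.52 (SE 0.41) and Adamts14, an N-proteinase, by 2.33 (SE 0.32).

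Proteins that bind, sense or cut collagen were tested in 3 further lists, again beside all-gene shares of 28.7% higher and 25.1% lower. Of 14 collagen-binding proteoglycans and glycoproteins 11 were higher and 1 lower, with a median of 2.81. Lum, lumican, rose from 0.418 ± 0.258 to 169 ± 66.6 CPM, and Dpt, dermatopontin, had 15 wild type counts, all in wild type library 1, and reached 120 ± 43.2 CPM. Postn, periostin, fell from 544 ± 20.5 to 72.4 ± 16.3 CPM (-2.91 ± 0.27 on the log2 scale, edgeR adjusted p = 5.73e-06). Of 9 collagen receptors tested 5 were higher and 2 lower, with a median of 2.39. Lair1, an inhibitory receptor of leukocytes, rose by 3.84 ± 0.31 and Itga11, a fibroblast integrin chain, by 5.44 ± 0.48 on the log2 scale. Ddr1, a receptor kinase of epithelia, fell from 227 ± 32.2 to 68.8 ± 31.7 CPM. Itga10 fell by 1.07 (SE 0.39, edgeR adjusted p = 0.0365), not called without the knockout library 2 (0.0933) or 3 (0.113) or wild type library 1 (0.167), 2 (0.0547) or 3 (0.0542). Of 11 collagen-degrading enzymes tested 10 were higher and 0 lower, with a median of 5.33. Mmp9, a gelatinase, rose from 0.208 ± 0.135 to 194.7 ± 87.9 CPM and Mmp13, a collagenase, from 1.12 ± 0.347 to 271 ± 117 CPM. Macrophage and neutrophil markers were higher in the same libraries, Mmp8 is in both the enzyme and the neutrophil list, and the part of these cells was not tested.

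Partners of type IV collagen in the basement membrane went both ways. Of 16 genes 5 were higher and 8 lower, with a median of -0.76. Among all genes tested 28.7% were higher and 25.1% lower, so the higher part of this list is near the all-gene share. The nidogens, which link the laminin and type IV networks, rose, Nid2 from 1.93 ± 1.00 to 35.9 ± 12.2 CPM and Nid1 from 7.84 ± 3.47 to 61.0 ± 26.0 CPM. The laminin chain genes Lamb3 and Lamb2 fell, from 265 ± 27.5 to 31.2 ± 14.1 CPM and from 174 ± 30.8 to 26.5 ± 5.42 CPM. Of 9 genes of TGF-beta signalling, the best known inducer of collagen genes, 6 were higher and 1 lower, with a median of 1.84. The ligand gene Tgfb1 rose from 28.9 ± 2.31 to 210 ± 41.1 CPM, while Tgfb2 fell from 23.9 ± 3.60 to 10.1 ± 0.501 CPM (edgeR adjusted p = 7.6e-04).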

How the data were processed

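RNA-seq of epidermis was deposited for 3 libraries labelled knockout and 3 labelled wild type, grouped by the genotype label. The authors deposited whole-number read counts per gene and FPKM. HISAT2 2.0.5, featureCounts 1.5.0-p3 and mm10 are named in the submitters' processing notes. No source used here gives the counting parameters, strand setting or annotation release, so reads of overlapping genes cannot be told apart. Exons of 13 members overlap another gene's in GENCODE M21, whose start and end match 36 of the 37 members. In each library the deposited FPKM equals the count over the deposited gene length times 1 constant. FPKM was used for levels between genes and for alternatives.

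Counts were tested with edgeR 4.0.16 (R 4.3.3): filterByExpr (minimum count 10, minimum total 15), TMM factors, robust quasi-likelihood test, genotype only, Benjamini-Hochberg adjustment over 16471 genes, called under 0.05. SE was derived as |log2 fold change| divided by √F, and intervals are at 95%. The members, gene lists and rules for naming genes were chosen with earlier results of these data known. From each pathway list the 2 called genes with the smallest adjusted p in each direction are named, and from each cell type list the 2 with the highest mean CPM in either group. 1 gene that this rule names is not reported here. Other genes named were chosen after their values were seen. Col17a1 is in 3 lists, and Col2a1, Col9a1, Col11a2, Dcn, Dpt, Lama3, Lamb3, Lum and Mmp8 are in 2.

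Pairing rests on the replicate numbers in the sample titles, whose meaning no label gives. Across genes, deviations from group means of same-numbered libraries correlated at 0.29, 0.45 and 0.21, and those of other pairs at -0.43 to 0.10, so a replicate block was among the alternatives. No 2 libraries of a group were duplicates (chi-square per degree of freedom 29.8 to 80.5). Alternatives were other scalings and filters, DESeq2 1.42.0, limma-voom and limma-trend (limma 3.58.1) on log2(FPKM + 1) and log2(FPKM + 0.1), non-robust dispersion, and leaving out libraries. The test was checked on simulated data, in which a small set of genes changed, balanced up and down, and genes scarce in the wild type were left out. That check therefore does not cover members such as Lox, Loxl4 and Col5a3, or a comparison where 53.8% of genes are called.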

Additional observations from a re-analysis of the deposited data

How the results depend on the processing

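Over 19 alternatives the members called higher numbered 19 to 23 and those called lower 5 or 6. In every alternative run, 19 of the 21 higher and 5 of the 6 lower genes were called in the same direction. The exceptions were Col8a1 and Col13a1 (not called on log2(FPKM + 1) without a filter, limma-trend adjusted p = 0.0532; without wild type library 1 its log2 fold change was 6.83) and Col9a3. Col8a1 was also not called in the 3 FPKM fits (limma-trend adjusted p = 0.0938, 0.104 and 0.168). The replicate block gave 22 higher and 6 lower members and changed no call of a named gene other than Col18a1. The all-gene median of -0.03 became -0.22 with upper-quartile and -0.18 with library-size scaling.

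Values that turned sign were all small and not called. The log2 fold change of Col4a2 was -0.0651 with upper-quartile factors, -0.0398 with library size only, -0.0267 without the knockout library 3 and -0.0196 without wild type library 2, and with single libraries left out it reached at most 0.3557. That of Col4a1 was 0.0092 without the knockout library 1, 0.12 without wild type library 1 and 0.19 without both libraries numbered 1. That of Col11a2 was -0.0551 with upper-quartile factors, -0.3553 without the knockout library 1, -0.0455 without wild type library 3 and -0.0521 without both libraries numbered 1, and with single libraries left out it reached at most 0.4669. The cause was not tested.

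P3h4 was also not called with RLE factors (edgeR adjusted p = 0.0536), DESeq2 (0.0544), without the filter (0.068), without both libraries numbered 1 (0.0801) or in the 3 FPKM fits (limma-trend adjusted p = 0.0605, 0.0588 and 0.0976), nor Itga10 in those 3 (0.0619, 0.0602 and 0.105). On log2(FPKM + 1) without a filter the calls of Dcn (limma-trend adjusted p = 0.0542), Notch3 (0.0542), Krt14 (0.0635) and Erbb3 (0.0516) were also lost.

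Some list counts moved by over 1.5 times across the alternatives, where the higher genes ranged from 1 to 6 (main 1) for adipocyte, 1 to 5 (1) for chondrocyte, 5 to 9 (8) for endothelial, 3 to 7 (5) for pericyte, 1 to 5 (4) for skeletal muscle, 0 to 1 (0) for suprabasal and 4 to 8 (5) for remaining collagen genes. The lower genes ranged from 0 to 2 (2) for hydroxylation and folding, 1 to 2 (2) for collagen receptors, 1 to 2 (1) for remaining collagens, 0 to 1 (1) for pericyte, 0 to 1 (0) for endothelial and 1 to 2 (2) for Schwann cell genes. Part of this follows from the number of genes tested (15200 with at least 1 CPM in 3 libraries, 30735 without a filter).

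With 3 libraries per group, and wild type levels of a few counts for Lox, Loxl4, Col5a3 and Col13a1, the size of those rises is poorly fixed. A fold on log2(FPKM + 1) understates low genes.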
